A study of Mus musculus with 6 samples.

Results

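The genes described here are 8 cyclic nucleotide phosphodiesterases, Pde1b, Pde2a, Pde3b, Pde4a, Pde4b, Pde4d, Pde7a and Pde8a, chosen by name from the 47643 reference gene identifiers in the expression tables of mouse regulatory T cells. All 8 were found once in every table. The cells were natural regulatory T cells (nTregs, the CD4 lineage defined by Foxp3) taken from spleens of C57BL/6 mice of genotype Foxp3-DTR/EGFP, in which Foxp3 also drives a diphtheria toxin receptor and the green fluorescent protein used for the sort. Both groups had first spent 2 days under activation, by anti-CD3 bound to the plate together with anti-CD28 and IL-2 in solution. The first group, EP4 agonist, then received an EP4 agonist at 100 nM for 6 h (EP4 is one of the prostaglandin E2 receptors, and the compound is not named in the labels), and the second, vehicle, received DMSO for the same time. Each group has 3 libraries, and the labels do not say whether these came from separate mice, cultures or aliquots, so every p-value refers to the spread between these libraries. The question for these genes is which phosphodiesterases activated nTregs transcribe, and which differ after EP4 stimulation.

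Cyclic nucleotide phosphodiesterases hydrolyse cyclic AMP, cyclic GMP or both and so end the signals that these messengers carry. EP4 couples to the stimulatory G protein, which activates adenylyl cyclase and raises cyclic AMP. In T cells cyclic AMP acts mainly through protein kinase A, damps signalling from the T cell receptor, and is cleared largely by the cyclic AMP-specific enzymes of the PDE4, PDE7 and PDE8 families and by PDE3B. Some phosphodiesterases are themselves induced by cyclic AMP, a negative feedback known for short PDE4 forms in rat cells. The PDE4 genes have many alternative first exons. Their long forms carry an upstream conserved region through which protein kinase A activates them, and their short forms lack it.

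The libraries rest on 4.32 to 4.98 gigabases of aligned sequence with the agonist and 4.49 to 5.65 gigabases with vehicle, and 12040 to 12259 and 11947 to 12191 genes in these groups reached 1 FPKM. FPKM counts fragments per kilobase of transcript and is scaled to the size of the library. Levels of different genes are set side by side on that scale, and the length used for each gene is not given in the sources used here. Deposited coverage (mean depth per base) per unit of FPKM was 0.0246 to 0.0352 for Pde4d and 0.0693 to 0.0833 for Pde4b. It was 2.98 to 5.65 for the other members, and the part of this difference in the order of levels was not tested. All 6 markers of regulatory T cells, Foxp3 and Il2ra among them, were present in every library, with a summed level of 1640 to 1810 FPKM with the agonist and 1488 to 1588 FPKM with vehicle. The 4 B cell markers summed to 3.69 to 6.19 FPKM with the agonist and 5.64 to 5.93 FPKM with vehicle, the 2 CD8 T cell markers to 4.53 to 6.41 and 3.89 to 5.43 FPKM, and the 5 myeloid markers to 4.09 to 5.37 and 2.56 to 4.19 FPKM. The 2 erythroid markers summed to 0.601 to 2.63 FPKM with the agonist and 1.47 to 5.76 FPKM with vehicle, and no marker of dendritic cells, NK cells or platelets reached 1 FPKM in 3 libraries. Of the 2 erythroid markers, Hbb-bs stayed between 0 and 0.157 FPKM over all libraries. It was left out of the test, with a log2 difference of -0.03. The erythroid marker Hba-a1 was lower with the agonist in 3 of 3 same-numbered pairs, with log2 differences of -0.62, -0.45 and -0.91 in pairs 1, 2 and 3, and it fell in the blocked fit, which compares libraries of the same number (limma, adjusted p = 0.528 without the block, and 0.0368 with it), the fit in which Pde4b, Pde4d and Pde8a passed. Of the Treg markers Ikzf2 rose in that fit (limma, adjusted p = 0.410 without the block, and 0.0268 with it). The groups did not overlap in the Treg sum or in Ctla4, which had 314.2, 414.0 and 410.6 FPKM in agonist replicates 1, 2 and 3, and 277.3, 241.7 and 206.4 FPKM in vehicle replicates 1, 2 and 3. The part of these markers in the results was not tested. In bulk RNA a smaller number of cells with a transcript and less of the transcript per cell cannot be told apart.

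Pde4d, which encodes a cyclic AMP-specific enzyme, was the most abundant phosphodiesterase transcript in all 6 libraries, and its mean level with the agonist was 2.01 times that with vehicle. The gene (ENSMUSG00000021699.17) lies on the plus strand of chromosome 13, from 108449948 to 109953461 in mm10, a span of 1504 kb. The authors' tables also list assembled loci for each library. In every library a single such locus on the gene's strand was left once loci within 50 bases of another gene's start and end (the pseudogene Rps3a3 and the microRNA gene Mir1904) were set aside. It lay at the far 3′ end of the gene. It ran from 109903102 to 109953461 in 5 libraries and from 109901493 to 109955962 in vehicle replicate 2, which is 3.35 to 3.46% of the gene's span. Its FPKM matched that of the gene's own row to within 1% in 5 libraries, while in vehicle replicate 2 the locus had 11.8 FPKM and the gene row 9.83 FPKM.

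The start of this locus in those 5 libraries is the annotated start of Pde4d-206, a transcript marked for nonsense-mediated decay, and lies just before that of Pde4d-207 at 109903106, a coding transcript of 584 residues, in the GENCODE M21 annotation. It is 1453.2 kb into the gene. Of the 12 coding transcripts of Pde4d in that annotation, 8 start more than 1 kb upstream of the locus, and these encode between 678 and 803 residues. No assembled locus covered their starts in any library, although the assembly lists only loci past a threshold that is not given in the sources used here. The remaining 3 coding transcripts, Pde4d-203, Pde4d-204 and Pde4d-219, start inside the locus, and the tables do not separate them from Pde4d-207. In most libraries the Pde4b, Pde3b and Pde8a loci had the exact start and end of an annotated transcript. Whether the annotation guided the assembly is not given in the sources used here. A start shared with an annotated transcript is therefore not an independent reading of the start in use.

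The same held for Pde4b, a cyclic AMP-specific phosphodiesterase studied for its link to T cell receptor signalling. The gene (ENSMUSG00000028525.16) lies on the plus strand of chromosome 4, from 102087543 to 102607259, and its assembled locus started at 102570095 in all 6 libraries. That position is the start of Pde4b-203, which encodes 564 residues, and lies 482.6 kb into the gene. The 5 coding transcripts that start more than 1 kb upstream, 3 of which encode 659, 721 and 736 residues, had no locus over their starts. The coding transcripts Pde4b-201, Pde4b-202 and Pde4b-204 start inside the locus, and the tables do not separate them from Pde4b-203. The locus held 6.88 to 7.15% of the gene's span, and its FPKM was within 1% of the gene row in 5 libraries. In agonist replicate 3 the locus extended to 102607331 and had 14.1 FPKM against 10.9 FPKM for the gene row.

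**Figure D1:**
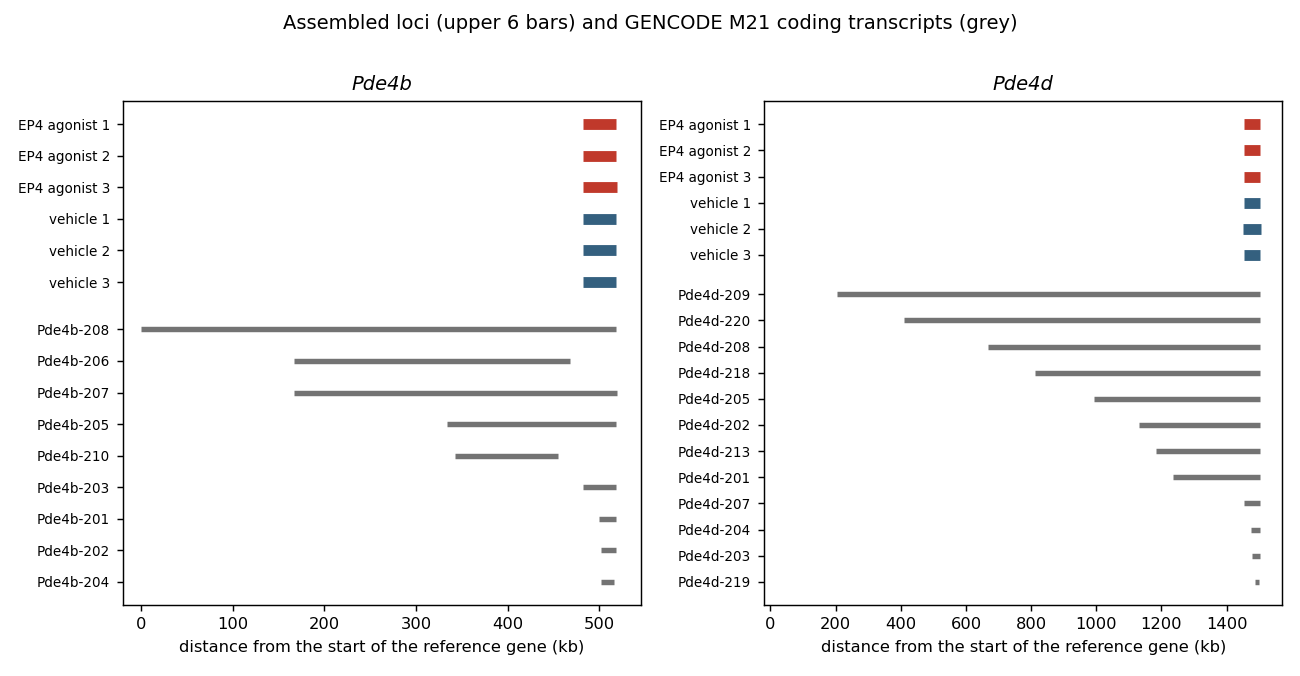
Position of the locus assembled in each library (EP4 agonist in red, vehicle in blue) and of the coding transcripts of GENCODE M21 (grey), as distance in kb from the start of the reference gene, for Pde4b (left) and Pde4d (right). The loci begin 482.6 kb into Pde4b in all 6 libraries, at the start of Pde4b-203, and 1453.2 kb into Pde4d in 5 libraries, beside the start of Pde4d-207 (1451.5 kb in vehicle replicate 2), downstream of the starts of the longer transcripts.

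Sequences before these starts were read from RefSeq promoters of the GRCm38.p6 build, each with 250 bases before and 50 bases from an annotated start. They were available for 6 of the 8 genes, and they are shown for Pde4b, whose upstream start can be set beside the start nearest to the assembled loci, and for Pde8a. Capitals mark TGACG, the 5-base core of the cyclic AMP response element TGACGTCA, read on either strand (CGTCA on the other), and the core lies within the element and overlaps it by construction. The first sequence belongs to an upstream Pde4b start (chr4:102421305-102421604, plus strand), the second to the RefSeq start at 102570060, just upstream of 102570095, where the Pde4b loci begin (chr4:102569810-102570109, plus strand), and the third to Pde8a (chr7:81213015-81213314, plus strand). The Pde8a promoter belongs to a RefSeq start at 81213265. In all 6 libraries the Pde8a locus began downstream of the printed bases, at 81213596 in 5 libraries and at 81213333 in agonist replicate 2.
Pde4b upstream start: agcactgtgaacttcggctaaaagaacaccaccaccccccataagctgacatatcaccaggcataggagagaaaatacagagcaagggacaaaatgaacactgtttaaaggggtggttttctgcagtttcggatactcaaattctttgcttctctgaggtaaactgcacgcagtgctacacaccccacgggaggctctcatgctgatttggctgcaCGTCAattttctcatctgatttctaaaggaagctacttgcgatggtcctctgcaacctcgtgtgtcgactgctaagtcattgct
Pde4b RefSeq start nearest to the assembled loci: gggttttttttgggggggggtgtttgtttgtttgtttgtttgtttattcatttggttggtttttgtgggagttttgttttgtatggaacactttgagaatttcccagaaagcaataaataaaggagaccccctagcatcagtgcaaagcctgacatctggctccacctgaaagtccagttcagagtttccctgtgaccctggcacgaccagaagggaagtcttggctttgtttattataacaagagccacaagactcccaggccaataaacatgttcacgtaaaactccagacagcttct
Pde8a: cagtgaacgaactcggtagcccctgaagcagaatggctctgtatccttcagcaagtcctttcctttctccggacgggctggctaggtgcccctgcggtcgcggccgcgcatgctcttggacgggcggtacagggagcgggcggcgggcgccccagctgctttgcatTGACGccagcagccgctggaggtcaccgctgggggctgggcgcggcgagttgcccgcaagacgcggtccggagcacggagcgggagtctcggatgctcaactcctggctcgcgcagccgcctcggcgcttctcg

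The core begins at -84 from the RefSeq start in the Pde8a promoter, on the plus strand, and at -34 in the upstream Pde4b promoter, on the minus strand. It is not among the letters of the promoter nearest to the Pde4b loci. Of 17 promoters of the 6 genes, 4 held the core and 0 the whole element. Besides those of Pde8a and Pde4b, these were a Pde2a promoter (start 101450520) and a Pde4a promoter (start 21184101). Pde2a passed limma's test in neither fit, and Pde4a was not tested. The core was present in 20.8% and the element in 1.79% of all 32851 mouse promoters from RefSeq. The only Pde4d promoter among these belongs to the start at 108654177, far upstream of the assembled locus.

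In the libraries themselves, Pde4d stood at 30.7, 24.7 and 29.1 FPKM in agonist replicates 1, 2 and 3, and at 19.2, 9.83 and 12.9 FPKM in vehicle replicates 1, 2 and 3. The groups did not overlap, and vehicle replicate 1 was the vehicle library nearest to the agonist group. The means were 28.1 ± 3.12 FPKM with the agonist and 13.98 ± 4.78 FPKM with vehicle (SD, n = 3 each). The log2 fold change on the scale of log2(FPKM + 1), which understates the change of genes with low values, was 1.0 with a standard error of 0.22 and a 95% interval of 0.50 to 1.51. It did not pass limma's test across all genes (adjusted p = 0.131). With the block the standard error was 0.12 and Pde4d rose (limma, adjusted p = 0.0210). The log2 differences within the pairs numbered 1, 2 and 3 were 0.65, 1.24 and 1.12.

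The call for Pde4d depended on which libraries were used, as did the number of calls over all genes. Without vehicle replicate 1 the gene passed without the block (log2 fold change 1.24, limma, adjusted p = 0.0199). With the block it did not pass when pair 2 or pair 3 was left out (limma, adjusted p = 0.104 and 0.120). In those fits 0 and 1 of all 12186 genes tested passed, so the loss was not particular to Pde4d. Over all alternatives the adjusted p lay between 0.0186 and 0.384. On the deposited coverage, which for Pde4d was 0.317 to 0.891 per base of the whole gene model and so lay below the pseudocount of 1, the log2 fold change was 0.36.

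Pde4b had 12.1, 9.62 and 10.9 FPKM in agonist replicates 1, 2 and 3, and 8.97, 5.73 and 7.62 FPKM in vehicle replicates 1, 2 and 3. These groups did not overlap either, with the lowest agonist library just above the highest vehicle library. The log2 fold change was 0.51 with a standard error of 0.16 (95% interval 0.14 to 0.87), which did not pass limma's test without the block (adjusted p = 0.238). With the block Pde4b rose (limma, adjusted p = 0.0255), with differences of 0.39, 0.66 and 0.47 in the pairs numbered 1, 2 and 3. That call was lost without pair 1, 2 or 3 (limma, adjusted p = 0.0572, 0.109 and 0.121), and the adjusted p ran from 0.0255 to 0.543 over all alternatives. Of all 12186 genes tested, 241, 0 and 1 passed without pair 1, 2 and 3, against 1279 with all pairs. On coverage, which was 0.477 to 0.972 per base of the gene model, the log2 fold change was 0.28.

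Pde4a, the third cyclic AMP-specific PDE4 gene of the set (ENSMUSG00000032177.16, chromosome 9, 21165714 to 21213248, plus strand), had a low level in its gene row. It had 0.317, 0.305 and 0.170 FPKM in agonist replicates 1, 2 and 3, and 0.542, 0.281 and 0.189 FPKM in vehicle replicates 1, 2 and 3. No library reached 1 FPKM in that row, so the gene was left out of the test, and the difference of means on the log2 scale was -0.075. The groups overlapped. Its loci were assembled in 1 to 3 pieces per library. In 5 of 6 libraries the first piece started between 21181599 and 21181604, close to the annotated start of the retained-intron transcript Pde4a-204 at 21181616, and in vehicle replicate 1 it started at 21165714 with the gene. A piece had 0.60 to 1.59 FPKM, which was 294.1 to 412.0% of the gene row in the same library. The level of Pde4a therefore depends on whether the gene row or the pieces are read.

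The balance among the 3 PDE4 genes of the set was given as log2 ratios of FPKM + 1 within each library. Pde4c, which is outside the set, was left out. The log2 ratio of Pde4d to Pde4b was 1.28, 1.27 and 1.34 in agonist replicates 1, 2 and 3, and 1.02, 0.69 and 0.69 in vehicle replicates 1, 2 and 3. It was thus higher in each agonist library than in any vehicle library, by 0.50 on average. The ratios of Pde4d to Pde4a and of Pde4b to Pde4a were higher with the agonist by 1.08 and 0.58, without overlap on this scale. Since the gene row of Pde4a, used here, lies below the pseudocount of 1, these values depend on that pseudocount, and with a pseudocount of 0.1 the groups overlapped for Pde4b over Pde4a (exact two-sided permutation test, p = 0.20). An exact two-sided permutation test over the 6 libraries gave p = 0.10 for each of the 3 ratios of FPKM + 1 and 0.10 after adjustment over them, which is the smallest p that 3 libraries against 3 allow, so the test cannot pass the threshold.

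**Figure D2:**
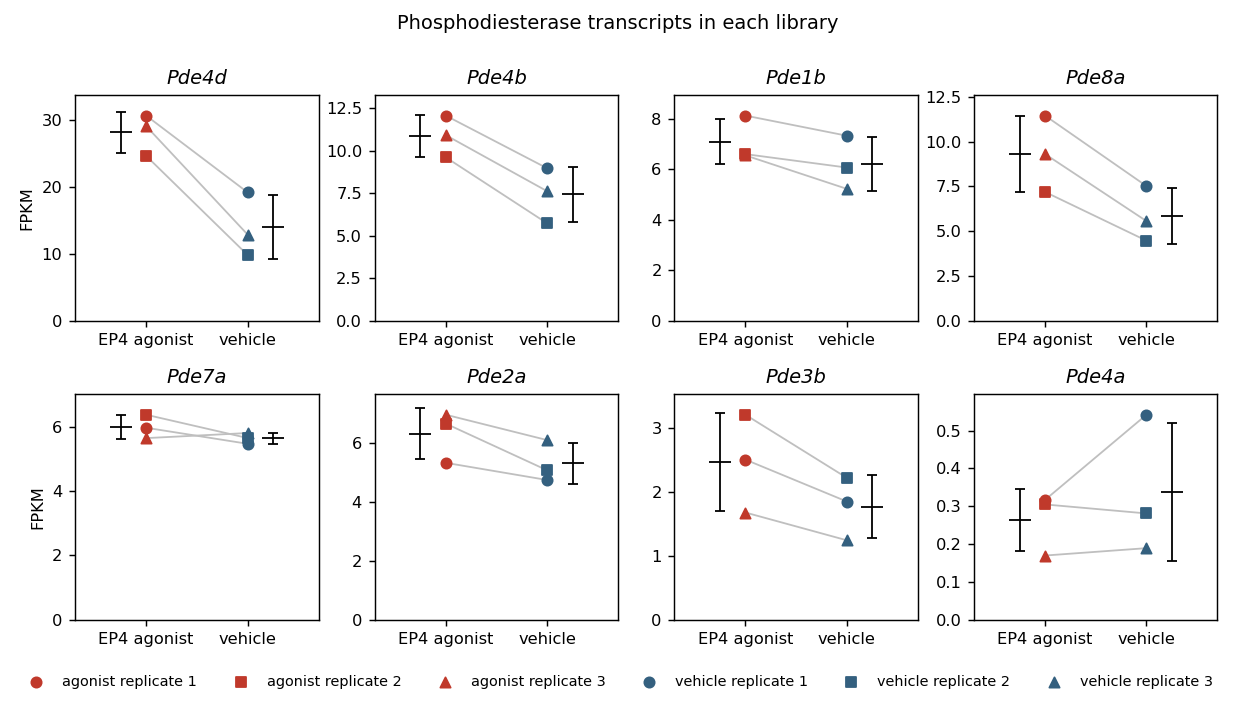
FPKM of each of the 8 phosphodiesterase genes in the EP4 agonist libraries (red) and vehicle libraries (blue), with grey lines joining libraries of the same replicate number and black bars giving mean ± SD (n = 3 per group). Each vertical axis starts at 0 and has its own scale. Pde4d (24.7 to 30.7 FPKM with the agonist, 9.83 to 19.2 FPKM with vehicle) and Pde4b are the genes whose groups do not overlap.

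Pde8a, which encodes a cyclic AMP-specific enzyme of high affinity, was the third gene that passed with the replicate block. The gene (ENSMUSG00000025584.17, chromosome 7, 81213596 to 81334533, plus strand) had 11.4, 7.19 and 9.30 FPKM in agonist replicates 1, 2 and 3, and 7.51, 4.47 and 5.56 FPKM in vehicle replicates 1, 2 and 3. The groups overlapped, because agonist replicate 2 lay below vehicle replicate 1. Each agonist library was nonetheless above the vehicle library of its own number, by 0.55, 0.58 and 0.65 on the log2 scale in pairs 1, 2 and 3. The log2 fold change was 0.59 with a standard error of 0.20 (95% interval 0.12 to 1.07), and limma's adjusted p was 0.280. With the block the standard error was 0.06 and Pde8a rose (limma, adjusted p = 0.0174). Without pair 1, 2 or 3 the blocked fit gave adjusted p = 0.0513, 0.101 and 0.0940, so the call needed all 3 pairs. Those fits called 241, 0 and 1 of all 12186 genes tested, against 1279 with all pairs. Over all alternatives the adjusted p ran from 0.0157 to 0.643. The assembled locus covered the full gene model in every library and matched its FPKM to within 1%. A small pseudogene on the opposite strand, Gm7180, lies inside Pde8a, and the strand setting of the counting is not given in the sources used here.

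Pde7a, a cyclic AMP-specific enzyme of lymphocytes, had the smallest log2 fold change of the 7 genes tested. It (ENSMUSG00000069094.12, chromosome 3, 19223108 to 19311322, minus strand) had 5.96, 6.37 and 5.64 FPKM in agonist replicates 1, 2 and 3, and 5.47, 5.65 and 5.80 FPKM in vehicle replicates 1, 2 and 3. The groups overlapped, and pair 3 differed in the opposite direction from pairs 1 and 2. The log2 fold change was 0.07 with a 95% interval of -0.13 to 0.28 (limma, adjusted p = 0.751, and 0.523 with the block). The assembled loci spanned the whole gene from its most upstream coding start, that of Pde7a-202.

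The 3 genes whose enzymes act on both cyclic AMP and cyclic GMP had higher means with the agonist, and none of them passed limma's test in either fit. Pde1b, which encodes a phosphodiesterase stimulated by calcium and calmodulin (ENSMUSG00000022489.5, chromosome 15, 103503298 to 103530052, plus strand), had 8.13, 6.60 and 6.55 FPKM in agonist replicates 1, 2 and 3, and 7.33, 6.07 and 5.23 FPKM in vehicle replicates 1, 2 and 3. The groups overlapped, and the log2 fold change was 0.17 ± 0.14 (standard error; limma, adjusted p = 0.618, and 0.164 with the block). The assembled locus over Pde1b also took in the neighbouring gene Nckap1l in every library, so its FPKM of 33.1 to 62.6 does not measure Pde1b alone.

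Pde2a, which encodes a phosphodiesterase stimulated by cyclic GMP (ENSMUSG00000030653.16, chromosome 7, 101421691 to 101512829, plus strand), had 5.33, 6.66 and 6.96 FPKM in agonist replicates 1, 2 and 3, and 4.75, 5.08 and 6.10 FPKM in vehicle replicates 1, 2 and 3. Replicate 1 was the lowest library of both groups. The log2 fold change was 0.21 ± 0.13 (standard error; limma, adjusted p = 0.504, and 0.125 with the block). Its loci began between 101451268 and 101451301 in all 6 libraries, 29.6 kb into the gene and within 300 bases of a pair of RefSeq starts, and 3 of its 4 coding transcripts start more than 1 kb upstream of them. A newer annotation, GENCODE M21, gives this gene another identifier, so the comparison was made by symbol.

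Pde3b encodes a phosphodiesterase that cyclic GMP inhibits, and it is known in mouse Tregs as a gene that Foxp3 represses. It (ENSMUSG00000030671.8, chromosome 7, 114415281 to 114539251, plus strand) had 2.51, 3.21 and 1.68 FPKM in agonist replicates 1, 2 and 3, and 1.85, 2.22 and 1.25 FPKM in vehicle replicates 1, 2 and 3. In both groups replicate 2 was the highest and replicate 3 the lowest library, and each agonist library was above the vehicle library of its number. The log2 fold change was 0.31 ± 0.21 (standard error; limma, adjusted p = 0.540, and 0.0863 with the block). Foxp3 itself had 153.8, 124.0 and 126.3 FPKM in agonist replicates 1, 2 and 3, and 153.4, 109.3 and 132.7 FPKM in vehicle replicates 1, 2 and 3.

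As a family, phosphodiesterase transcripts were those of these 8 genes almost alone. They made up 98.1 to 98.4% of the summed FPKM of all 23 cyclic nucleotide phosphodiesterase genes with the agonist and 97.5 to 97.7% with vehicle. None of the 15 other genes reached 1 FPKM in any library, and the highest value, 0.914 FPKM, was that of Pde4c in agonist replicate 1, a gene named here after its values were seen. Among the 8 genes the row of Pde4a, at 0.170 to 0.542 FPKM, also stayed below 1 FPKM. It lay below that of Pde4c in every library, and Pde4c averaged 0.706 FPKM with the agonist and 0.549 FPKM with vehicle. The 7 genes grouped as cyclic GMP-specific, among them Pde5a, Pde6b and Pde9a, summed to 0.222 to 0.281 FPKM with the agonist and 0.133 to 0.255 FPKM with vehicle. The family sum was 77.9, 65.8 and 71.5 FPKM in agonist replicates 1, 2 and 3, and 56.9, 40.3 and 45.7 FPKM in vehicle replicates 1, 2 and 3, so that every agonist library was above every vehicle library.

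Most of that difference stood in the cyclic AMP-specific genes. Their sum was 55.3 ± 6.32 FPKM with the agonist and 33.8 ± 8.09 FPKM with vehicle (SD, n = 3 each), while the genes for enzymes of both nucleotides summed to 16.2 ± 0.627 and 13.7 ± 0.629 FPKM. Pde4d held 39.2 ± 1.62% of the family's FPKM with the agonist and 28.8 ± 4.70% with vehicle, without overlap between the groups. Pde4b held 15.1 ± 0.454% and 15.5 ± 1.25%, and Pde8a 12.9 ± 1.88% and 12.2 ± 1.06%, so that their shares overlapped although their levels were higher. Pde7a held 8.41 ± 1.11% with the agonist and 12.1 ± 2.26% with vehicle. Shares within a library sum to a fixed total, and they are given as a description with no test.

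**Figure D3:**
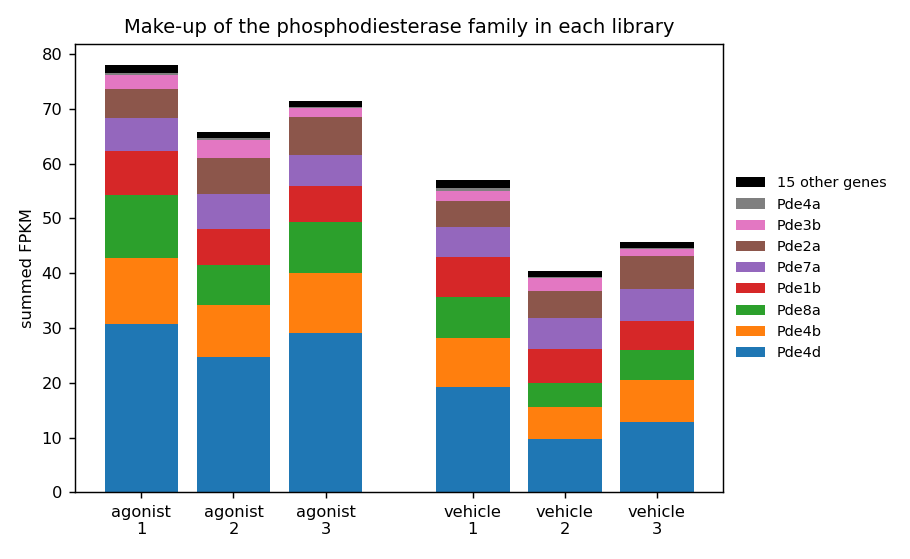
Summed FPKM of the 23 cyclic nucleotide phosphodiesterase genes in each EP4 agonist library (left 3 bars) and vehicle library (right 3 bars), split by gene. The bars reach 65.8 to 77.9 FPKM with the agonist and 40.3 to 56.9 FPKM with vehicle, and the lowest segment, Pde4d, is the largest in every library.

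In the gene rows, the order of levels within a library was clear at its ends and not in its middle. In both groups Pde4d stood above the next gene, Pde4b, in 3 of 3 libraries and without overlap of their ranges, and Pde3b and then Pde4a stood last, again without overlap. The last place of Pde4a holds for its gene row. Its single assembled pieces had 0.60 to 1.59 FPKM with vehicle, which overlapped the Pde3b rows of 1.25 to 2.22 FPKM. For the agonist group the pieces had 0.62 to 1.30 FPKM and the Pde3b rows 1.68 to 3.21 FPKM. With the agonist, Pde4b exceeded Pde8a and Pde8a exceeded Pde1b in 3 of 3 libraries each, but the ranges of these neighbours overlapped. With vehicle, Pde4b, Pde1b, Pde8a, Pde7a and Pde2a averaged 7.44, 6.21, 5.85, 5.64 and 5.31 FPKM, and each overlapped its neighbour in that order.

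Across the set, 7 of the 8 genes were tested, and Pde4a was not, since it stayed below the filter of 1 FPKM in 3 or more libraries. Without the block 0 of the 7 passed limma's test, against 0.394% of all 12186 genes tested (0.345% higher and 0.0492% lower with the agonist), and 3 of 7 had an unadjusted p under 0.05, against 14.0% of all genes. With the block 3 of 7 passed, all of them higher with the agonist, against 10.5% of all genes in either direction and 4.09% in the higher direction. An unadjusted p under 0.05 in that fit was found for 6 of 7, against 29.8% of all genes. Groups that did not overlap were found for 2 of 7, both higher with the agonist, against 19.4% of all genes in either direction and 7.27% in that direction. In 6 of 7 each agonist library exceeded the vehicle library of its number, against 20.7% of all genes. The median log2 fold change was 0.31 over the 7 and -0.03 over all genes tested, and 7 of 7 were positive, against 42.8%. These shares are descriptions, since the genes were chosen with results from these libraries known.

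**Figure D4:**
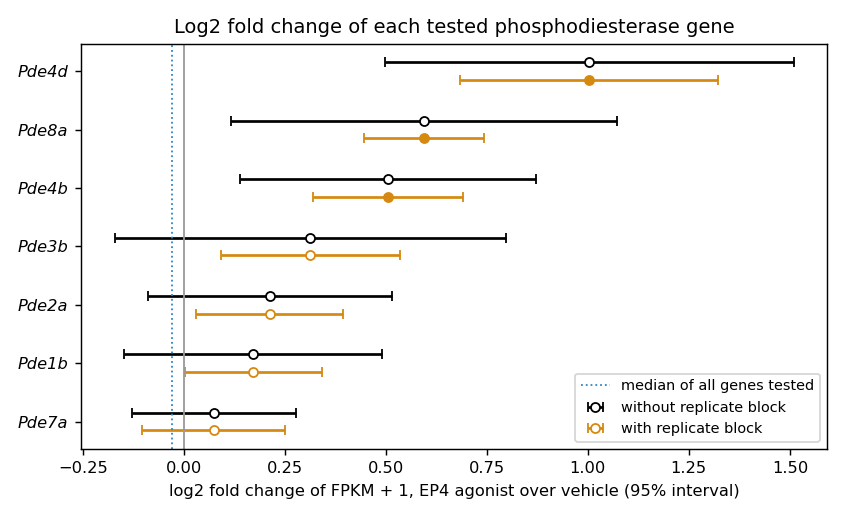
Log2 fold change of FPKM + 1, EP4 agonist over vehicle, with its 95% interval, for the 7 tested phosphodiesterase genes, without (black) and with (orange) the replicate number as a block. Filled points passed an adjusted p of 0.05, and the dotted line is the median of all genes tested, -0.03. Pde4d, Pde8a and Pde4b have the highest values (1.0, 0.59 and 0.51), and they are filled only with the block.

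Genes around the phosphodiesterases in the pathway were counted by list, against 0.394% of all genes passing without the block and 10.5% passing with it (4.09% higher and 6.41% lower). Of 11 tested genes of cyclic AMP production (receptors, G protein subunits and adenylyl cyclases), 1 rose and 0 fell without the block, and 1 rose and 1 fell with it. The riser was Gnal, a stimulatory G protein subunit, with 11.2, 10.4 and 8.98 FPKM in agonist replicates 1, 2 and 3, and 4.03, 2.31 and 1.83 FPKM in vehicle replicates 1, 2 and 3 (limma, adjusted p = 0.0329). With the block Ptger4, which encodes EP4 itself, fell to 20.1, 17.8 and 20.9 FPKM in agonist replicates 1, 2 and 3, against 25.7, 31.3 and 33.6 FPKM in vehicle replicates 1, 2 and 3 (limma, adjusted p = 0.109 without the block, and 0.0310 with it).

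Of 9 tested genes of cyclic AMP effectors and export, 0 passed without the block, and with it 0 rose and 2 fell. These were Abcc4, which encodes an exporter of cyclic AMP, whose log2 fold change was -0.37 (limma, 0.217 as the adjusted p without the block, and 0.0356 with it), and Prkar2a, which encodes a regulatory subunit of protein kinase A, with -0.33 (0.441, and 0.0345 with the block). Of 11 tested genes for anchoring proteins and partners of phosphodiesterases, such as Akap and beta-arrestin genes, 0 passed limma's test in either fit (adjusted p under 0.05), and their median log2 fold change was -0.01. No gene of the cyclic GMP pathway list passed the filter on low values, of the 9 found in the tables.

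Of 18 tested CREB factors and cyclic AMP response genes, 4 rose and 0 fell without the block, and 8 rose and 0 fell with it, with a median log2 fold change of 0.30. Among those that passed, the highest log2 fold changes were those of Fosl2, an AP-1 factor (1.91), Rgs2, a brake on G protein signalling (1.66), and Crem, a cyclic AMP-responsive transcription factor (1.44), of which Crem passed with the block alone (limma, adjusted p = 0.0858 without it, and 0.0300 with it). Pde4d, at 1.0, stood below these. All of these lists were compiled with earlier results from these libraries known.

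For each tested phosphodiesterase gene the 3 genes with the most similar profile were taken, as the smallest root mean square difference over the 6 libraries in log2(FPKM + 1) relative to the vehicle mean. For Pde4d these were Mxd1, Igsf23 and P2ry10, at 0.09, 0.09 and 0.15 log2 units. Mxd1, which encodes a partner of MAX in the MYC network, averaged 53.3 FPKM with the agonist and 28.5 FPKM with vehicle, and P2ry10, which encodes a G protein-coupled receptor, 156.9 and 84.3 FPKM. The closest genes to Pde4b were Zcchc11, Lyst and Gm18588, at 0.04 to 0.05. Those closest to Pde8a were Tnfaip3, Ube2h and Irak2, at 0.05 to 0.07, of which Tnfaip3 encodes a ubiquitin-editing inhibitor of NF-kB and Irak2 a kinase of Toll-like receptor signalling. Pde1b was closest to Nat6, Cbx8 and Zbp1, Pde2a to Mir6903, Maf and Cpm, Pde3b to Lrif1, Rnasek and Dmwd, and Pde7a to Vta1, Asb3 and Mmd.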

How the data were processed

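RNA was sequenced from 6 libraries of sorted nTregs, with a stranded mRNA kit per the labels' protocols. The authors deposited 1 table per library with FPKM and coverage (mean depth per base, a signal) for each feature, per the file headers, on mm10, per the labels. The submitters' processing notes name Trim Galore and HISAT2. Which program, annotation and strand setting gave the abundances is not given in the sources used here. The deposited TPM column sums to 1901346 to 1930242 per table and was not used. Fragment counts were not recovered, so no interval for counting error is given. The aligned bases were taken from the most frequent ratio of coverage to FPKM.

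Tests ran on log2(FPKM + 1), the planned fallback where no counts are held, over the 12186 genes that reached 1 FPKM in at least 3 libraries, in limma 3.58.1 (intensity trend, robust variances, statmod 1.5.0, R 4.3.3), with Benjamini-Hochberg adjustment over all of them and a threshold of 0.05. The fit was run on simulated data with planted changes larger than those of Pde4b and Pde8a. The blocked fit was run there only on data with a planted pair effect. That run does not test a block chosen from the same libraries. Rows that share an identifier were summed, and of a symbol with several identifiers the one with the highest mean was used. Assembled loci were set against GENCODE M21, and promoters came from RefSeq. Tables were read with Python 3.11.15 and pandas 2.3.3.

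Replicate numbers occur in both groups. Deviations from the group means correlated at 0.512, 0.404 and 0.321 for same-numbered libraries, all above the limit of 0.1, and at -0.353 to 0.002 for the others, and on that basis, not on the labels, the fit with a block treats same-numbered libraries as pairs. Deviations from a group mean cancel within the group, so the correlations of the other libraries are not independent of those of same-numbered ones. A block chosen from the same libraries favours smaller p-values.

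The named genes are the 8 members, family members that pass the filter, the 3 nearest profiles per member, and up to 3 called genes per pathway list with the largest changes. The members and lists were chosen with earlier results of these data known. Alternatives cover pseudocount, filter, scaling, coverage, variance model, block and libraries left out, and the use of assembled loci was chosen after seeing the data. The planned identity between PDE4 proteins was not computed.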

Additional observations from a re-analysis of the deposited data

How the results depend on the processing

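The direction of change was positive for all 7 tested phosphodiesterase genes under each alternative run (19 to 21 per gene), and Pde1b, Pde2a, Pde3b and Pde7a stayed above an adjusted p of 0.05 in each. Pde4b, Pde4d and Pde8a passed limma's test with the replicate block (log2 fold changes 0.51, 1.0 and 0.59), with the block and quantile normalization (0.53, 1.05 and 0.60), with the block and a pseudocount of 0.1 (0.56, 1.05 and 0.67), and with the block and the assembled locus in place of the gene row (0.62, 0.92 and 0.60), the last chosen after seeing the data. That made 3 genes called in each of these 4 fits, where the fit without the block called 0. Without 1 library, or 1 pair in the blocked fit, the number called was 0 to 1, the gene being Pde4d without vehicle replicate 1 (1.24) or without pair 1 in the blocked fit (1.18). Leaving out libraries gave log2 fold changes of 0.35 to 0.64 for Pde4b, 0.79 to 1.24 for Pde4d and 0.44 to 0.76 for Pde8a. The block changed no other call among the 8 genes. The 3 ratios between PDE4 genes kept their sign under all 7 alternatives each. The value of Pde4a, which has no test, ran from -0.21 to 0.03.

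The number of genes called of all tested, 48 (42 higher and 6 lower), was 2 with no filter on low FPKM, 75 with upper quartile scaling, 78 on coverage, 1279 with the replicate block (498 higher and 781 lower), 997 with the block and quantile normalization (519 higher and 478 lower), 1228 with the block and a pseudocount of 0.1, 0 to 133 without 1 library, and 0 to 241 in the blocked fit without 1 pair. Where the count was 0 limma gave an unadjusted p under 0.05 for 1033 to 2557 genes. The cause of these shifts was not tested. Depth could not be turned into an interval, because the tables hold no fragment counts. Its part in the values of Pde4a and of the other family members below 1 FPKM was not tested.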
